A study of Rattus norvegicus with 7 samples.

Results

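Solute carrier (Slc) transporter genes were examined in the lungs of fetal Sprague-Dawley rats. Pregnant rats received an ultrasound-guided intra-amniotic (IA) injection of PBS or of 10 µg LPS (E. coli O55:B5), the lipopolysaccharide of the bacterial envelope, on embryonic day 18, and the fetal lungs were collected 24 h later. The dose is taken from the design text of the series, since the sample labels give it with a digit missing. There were 3 control lungs (PBS) and 4 IA LPS lungs, each sequenced as whole tissue, so that fewer cells of a type and less RNA per cell cannot be told apart. The labels do not say which lungs came from the same dam or litter, and the p-values measure the spread between these lungs only. Total counts ranged from 25031827 to 28336525 per lung.

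The rows of the count table carry Ensembl identifiers and no names, and an Slc gene could be found only where the supplementary tables of the study pair its identifier with a symbol. They name 47 Slc genes other than Slc4a1, the anion exchanger of red cells, which was left out. Of these 47 names, 14 come from a list of genes higher in placenta after IA LPS and 33 from a list of genes lower there. Their names are thus known here through lists made from another tissue, and being listed is not shown here to mean a response there. The list of lower genes is held here without its last rows. The table holds 46 of the 47, and 23 had 10 or more counts in at least 3 of the 7 lungs. These 23 are described here, out of 15813 genes that met the same filter. Most transporters of a lung, such as those for glucose or for phosphate in type 2 cells, are therefore not among them.

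Slc proteins are membrane carriers that move ions, sugars, amino acids, nucleosides, fatty acids, vitamins and drugs, either down a gradient or coupled to sodium, protons or chloride. In the fetal lung, epithelial carriers and channels secrete the chloride-rich liquid that keeps the airspaces expanded, and they turn to sodium absorption around birth. Other members serve narrower roles, such as loading of synaptic vesicles in nerve endings, uptake of serotonin from blood by the pulmonary endothelium, or uptake of bile acids in the liver.

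The 23 Slc genes were mostly low in these lungs. Their median level was 1.36 CPM (CPM, counts scaled to library size after TMM and not corrected for gene length), against 20.7 CPM over all genes tested. In 5 of them the mean over the 7 lungs was above 10 CPM, in 9 it was between 1 and 10 CPM, and in 9 it was under 1 CPM. The detection floor was set at 3 counts, or 0.105 to 0.124 CPM depending on the lung, and covers counting error only. The median standard error of the log2 fold change was 0.339 in the Slc genes and 0.165 over all genes tested. The 23 genes together took between 0.0408% and 0.0490% of the counts of a lung, and this share overlapped between the groups.

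None of the 23 Slc genes was called induced or suppressed over the 7 lungs. Genes were called when they changed 1.5-fold or more with a p below 0.05 and an adjusted p below 0.1 (edgeR's quasi-likelihood test, Benjamini-Hochberg over all genes tested). Over all genes, 300 (1.9%) were called, 220 (1.39%) induced and 80 (0.506%) suppressed. An unadjusted p under 0.05 was reached by 5 of the 23 (21.7%), against 15.8% of all genes tested and 24.1% of the other 1305 tested genes that had a symbol. Slc22a8, among them, met the filter through the control lungs alone, where it is high, and without it 4 of 22 (18.2%) had such a p. Slc46a2 is among these 4, and of its controls only replicate 2 reached 10 counts. It met the filter by its IA LPS lungs, where it is high. The change was upward in 12 of the 23 (52.2%), against 51.5% of all genes, and the median log2 fold change was 0.02 against 0.01. By other tools over the same 7 lungs, limma-voom called none, with 1.68% of all genes called. DESeq2, which called 3.98% of all genes, called Slc28a2 induced and Slc22a8 suppressed. Quality-weighted limma-voom, which gives less weight to a library that stands apart, called 4.52% of all genes, these and Slc46a2 among them. Without IA LPS replicate 4, which has no column in the lung count table of the study's supplement, edgeR called Slc28a2, while 514 (3.25%) of all genes were then called, 338 (2.14%) induced and 176 (1.11%) suppressed. In that fit 6 of the 23 (26.1%) had an unadjusted p under 0.05, against 22% of all genes, and the change was upward in 10 (43.5%), against 50.5%. IA LPS replicate 4 stood apart on the first principal component, with a score of 71.9 against -32.2 to 10.9 in the other 6 lungs. Without control replicate 1, 2 or 3 or IA LPS replicate 2, at most 1 gene of the whole table was called.

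**Figure D1:**
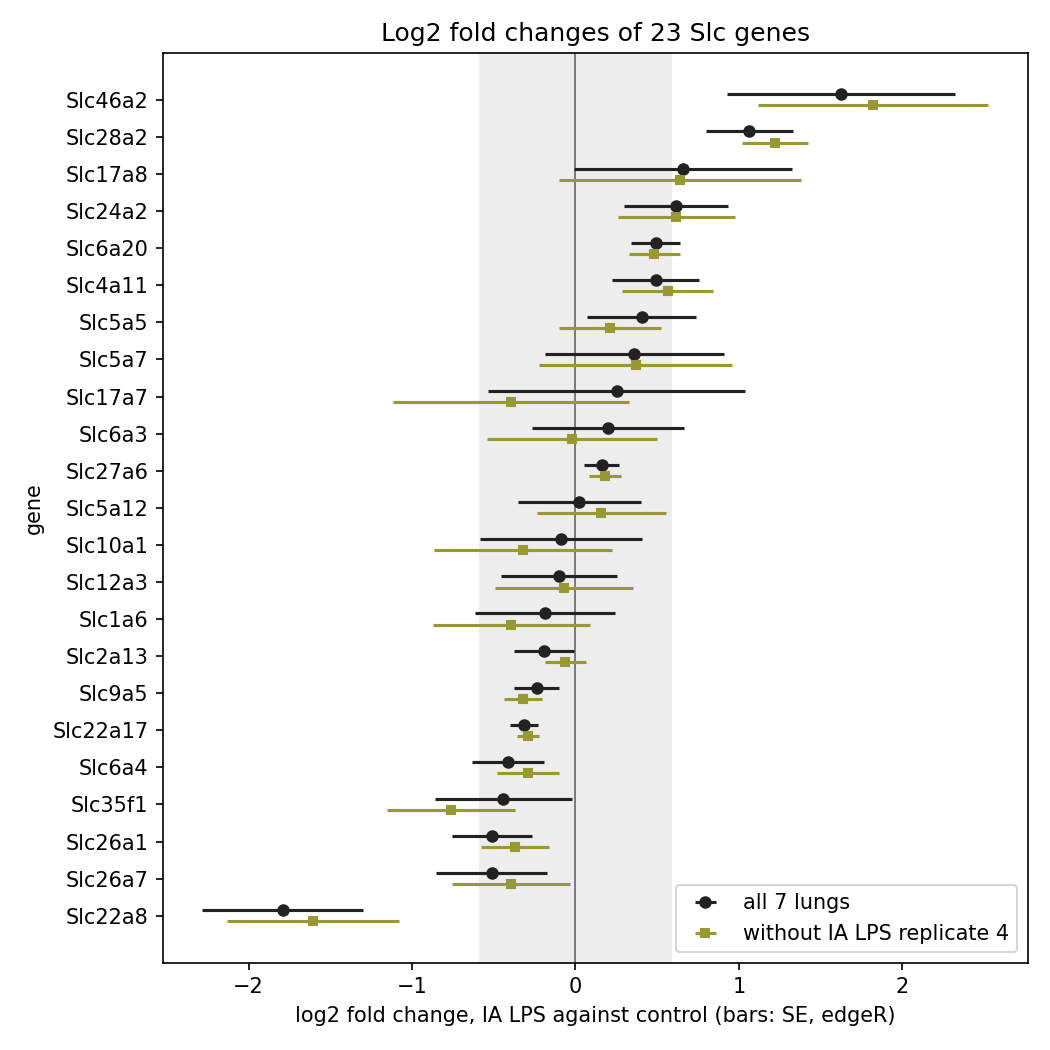
Log2 fold change of each of the 23 Slc genes, IA LPS against control (horizontal axis, log2 scale, bars are SE from edgeR), over all 7 lungs (circles) and without IA LPS replicate 4 (squares). The grey band marks fold changes under 1.5. Slc46a2 (1.62) and Slc28a2 (1.06) lie farthest to the right and Slc22a8 (-1.79) farthest to the left, and edgeR called none of the 23 over the 7 lungs.

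The control and IA LPS lungs did not overlap in CPM in 5 of the 23 Slc genes (21.7%), against 19.7% of all genes tested, or in 4 of 22 (18.2%) without Slc22a8. Slc28a2, Slc6a20 and Slc4a11 were higher in every IA LPS lung than in any control, and Slc22a17 and Slc22a8 were lower, against 10.6% and 9.14% of all genes. With DESeq2's size factors 5 genes also did not overlap. Without IA LPS replicate 4, 7 genes did not overlap (30.4%), against 27.8% of all genes, the others being Slc46a2 and Slc9a5.

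**Figure D2:**
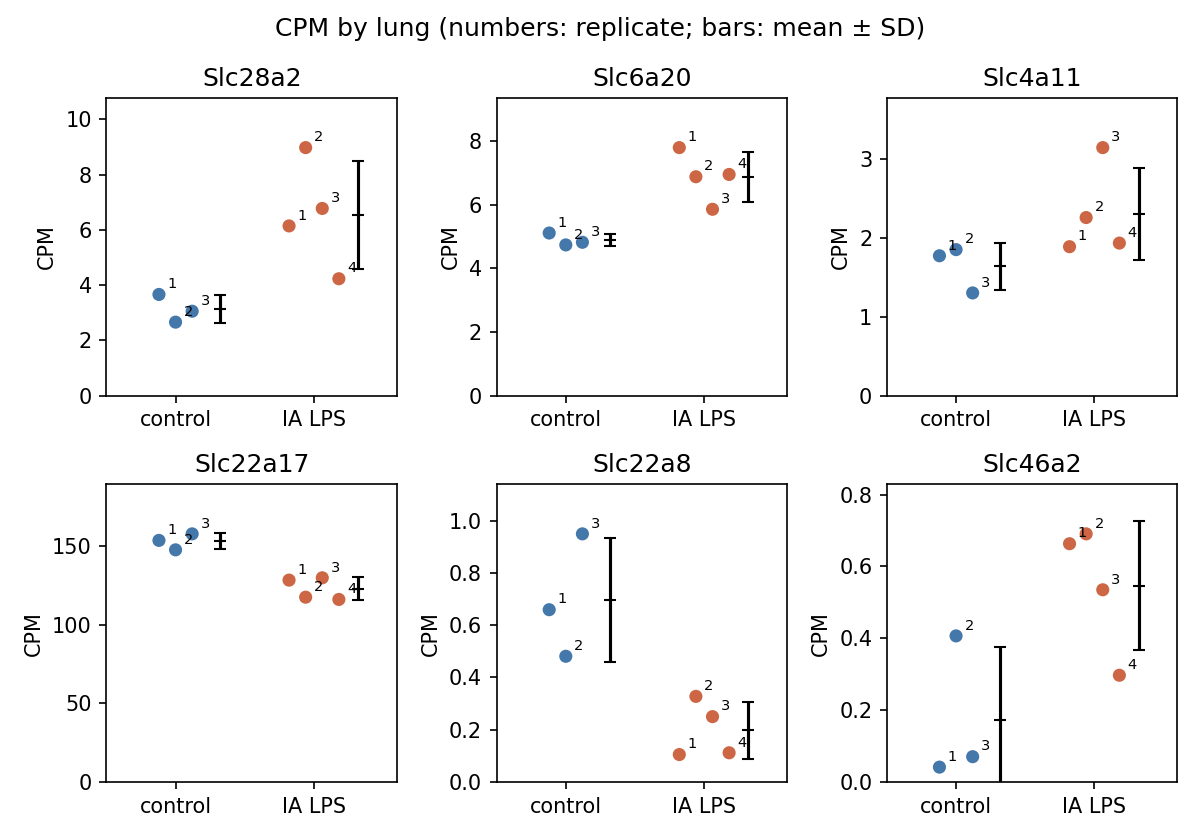
CPM in each lung (points, numbered by replicate) of the 5 Slc genes whose groups did not overlap and of Slc46a2, with the mean ± SD of 3 control and 4 IA LPS lungs (bars) and axes that start at 0 (the control bar of Slc46a2 is clipped there). IA LPS replicate 4 is the IA LPS lung nearest to the controls in Slc28a2, at 4.23 CPM, and lies below control replicate 2 in Slc46a2.

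Among these 5 genes, Slc28a2 had the largest increase and Slc22a8 the largest decrease, and the sequences around their transcription starts are shown for that reason. Each runs from 250 bases before to 50 bases after the start given by RefSeq in build GRCr8. The counts were made with the older rat build rno6.0, so the starts used in counting can differ. The Slc28a2 sequence is at chr3:129819538-129819837 and that of Slc22a8 at chr1:214927034-214927333, both on the plus strand. Capitals mark matches, on either strand, to TATAAA (the TATA box), GGGCGG (the GC box), TTCNNNGAA (bound by STAT factors), a loose form of the NF-kB site (GGG and CC with 5 bases between them) or GTTAAT (the core of the site of HNF1, a factor of kidney and liver). These motifs were chosen with the sequences in view.
Slc28a2: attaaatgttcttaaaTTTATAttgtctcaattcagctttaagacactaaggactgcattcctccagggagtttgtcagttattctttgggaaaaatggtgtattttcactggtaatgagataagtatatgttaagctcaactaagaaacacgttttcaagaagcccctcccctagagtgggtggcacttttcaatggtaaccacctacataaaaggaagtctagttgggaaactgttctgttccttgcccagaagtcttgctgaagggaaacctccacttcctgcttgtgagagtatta
Slc22a8: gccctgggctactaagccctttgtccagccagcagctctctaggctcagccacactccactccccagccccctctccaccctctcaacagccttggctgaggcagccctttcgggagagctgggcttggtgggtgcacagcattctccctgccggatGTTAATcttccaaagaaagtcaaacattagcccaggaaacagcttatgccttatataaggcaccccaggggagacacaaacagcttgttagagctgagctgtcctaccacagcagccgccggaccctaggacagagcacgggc

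The Slc28a2 sequence held only TATAAA, on the minus strand and 234 bases before the start, and the Slc22a8 sequence only GTTAAT, 93 bases before the start. TATAAA is in 14.2% and GTTAAT in 7.45% of the 33469 rat sequences of the same length, GGGCGG is in 33.1%, TTCNNNGAA in 8.87% and the loose NF-kB form in 47.3%. Of the 23 Slc genes 20 matched a sequence, of which 3 held TATAAA, 2 GTTAAT, 7 GGGCGG, 11 the loose NF-kB form and 0 TTCNNNGAA. The matches describe letters only.

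Carriers of organic ions, bile acids and nucleosides held 10 Slc genes of the table, 5 of them kept and none called by edgeR over the 7 lungs. Slc28a2 (ENSRNOG00000028668), the sodium-coupled carrier that takes up purine nucleosides such as adenosine and inosine, was at 3.66, 2.66 and 3.06 CPM in controls 1 to 3. It was at 6.15, 8.98, 6.78 and 4.23 CPM in IA LPS replicates 1 to 4. All 4 IA LPS lungs lay above the controls, replicate 2 highest and replicate 4 nearest to them. The means were 3.13 ± 0.505 CPM (SD, n = 3) and 6.53 ± 1.96 CPM (SD, n = 4), a 2.09-fold difference and 1.06 on the log2 scale (SE 0.265, edgeR's adjusted p = 0.118). The 95% interval of the log2 fold change was 0.46 to 1.67. Slc28a2 was past the thresholds with DESeq2 (adjusted p = 0.00907) and with quality-weighted limma-voom (adjusted p = 0.0165). Without IA LPS replicate 4 it was called by edgeR, at 1.22 on the log2 scale (SE 0.202, adjusted p = 0.0187), and in none of the 6 fits that left out another lung, with log2 fold changes down to 0.87. Over all 14 alternatives its adjusted p ranged from 0.00907 to 0.351.

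Of 8 macrophage markers, set beside Slc28a2 because macrophages salvage nucleosides, 7 had a name. Their sum was between 259 and 354 CPM in controls and between 410 and 517 CPM in IA LPS lungs. The 3 complement genes C1qa, C1qb and C1qc were called induced, as were 1.39% of all genes tested, and Lyz2, Cx3cr1, Cd68 and Adgre1 did not pass the test. C1qc (ENSRNOG00000012804) was at 43.3, 50.9 and 56.9 CPM in controls and 93.3, 105.8, 70.1 and 110 CPM in IA LPS replicates 1 to 4. Lyz2 (ENSRNOG00000005825), a lysozyme, was at 137, 157 and 210 CPM in controls and 292, 244, 234 and 148 CPM in IA LPS replicates 1 to 4. IA LPS replicate 4, the lowest IA LPS lung in Slc28a2, was the highest lung in C1qa, C1qb and C1qc and the lowest IA LPS lung in Lyz2, Cx3cr1 and Cd68. The part of these cells in the level of Slc28a2 was not tested.

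Slc22a8 (ENSRNOG00000018086), the organic anion transporter OAT3 best known from the kidney, had 16, 13 and 27 counts in the controls against 3, 9, 7 and 3 in the IA LPS lungs. It met the filter through the control lungs alone, so a difference was built into its selection and its values and p-values are a description. In CPM the controls were at 0.659, 0.481 and 0.949 and the IA LPS lungs at 0.105, 0.327, 0.250 and 0.111, with replicates 1 and 4 near the detection floor. Every IA LPS lung was below every control. The means were 0.696 ± 0.236 CPM (SD, n = 3) and 0.198 ± 0.109 CPM (SD, n = 4), and the log2 fold change was -1.79 (SE 0.491, edgeR's adjusted p = 0.145) with a 95% interval of -2.91 to -0.67. Slc22a8 was past the thresholds with DESeq2 (adjusted p = 0.0851) and with quality-weighted limma-voom (adjusted p = 0.0765), and in no fit of edgeR, where leaving out each lung gave -2.13 to -1.5.

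Albumin RNA, made by hepatocytes, varied widely between the lungs and is set beside Slc22a8. Alb (ENSRNOG00000002911) was the only gene of 7 hepatocyte markers with a name, at 64.3, 8.80 and 512 CPM in controls 1 to 3 and at 2.41, 83.8, 3.07 and 15.4 CPM in IA LPS replicates 1 to 4. Its groups overlapped. Control replicate 3 was the highest lung in both genes, and within the IA LPS lungs replicate 2 was highest in both. The 3 controls fell in the same order in both genes. Without control replicate 3 the log2 fold change of Slc22a8 was -1.5 (adjusted p = 0.343, edgeR). Control replicate 2, with less Alb than IA LPS replicates 2 and 4, had more Slc22a8 than either. Slc10a1 (ENSRNOG00000005794), the bile acid carrier of hepatocytes, did not follow Alb, at 0.247, 0.813 and 0.316 CPM in controls and 0.384, 0.40, 0.321 and 0.631 CPM in IA LPS lungs, with a log2 fold change of -0.09 (SE 0.497). The part of liver RNA in Slc22a8 was not tested, and these pairs of genes were chosen after their values were seen.

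Slc22a17 (ENSRNOG00000016414), a receptor for the iron-binding protein lipocalin 2, was measured with the smallest error of the 23 genes. It was at 154, 148 and 158 CPM in controls 1 to 3 and at 128, 118, 130 and 116 CPM in IA LPS replicates 1 to 4, so that all IA LPS lungs lay below the controls. The means were 153 ± 5.12 CPM (SD, n = 3) and 123 ± 7.17 CPM (SD, n = 4), and the log2 fold change was -0.32 (SE 0.0841, edgeR's adjusted p = 0.135). Its 95% interval, -0.51 to -0.12, lies wholly under a fold change of 1.5. The adjusted p was 0.0496 without IA LPS replicate 4 (log2 fold change -0.29, edgeR) and 0.00800 with DESeq2 (-0.32), and with either the change stayed below the fold change threshold.

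Slc46a2 (ENSRNOG00000017324), a carrier first described in thymic stroma, had 1, 11 and 2 counts in the controls against 19, 19, 15 and 8 in the IA LPS lungs. IA LPS replicates 1 to 3 alone met the filter, so a difference was favoured by its selection and its p-values are a description. Control replicate 2 lay above IA LPS replicate 4, at 0.407 against 0.297 CPM. The log2 fold change was 1.62 (SE 0.697, adjusted p = 0.310, edgeR), and it was 1.19 without control replicate 1 and 3.17 without control replicate 2, uncalled in both. Quality-weighted limma-voom called it (2.22, adjusted p = 0.0666). Of 6 thymocyte markers, which would mark thymus taken with the lung, Rag1 and Ptcra had a name. Their sum was between 0.407 and 1.05 CPM in controls, 30.6 CPM in IA LPS replicate 2 and as low as 0.642 CPM in the other IA LPS lungs. In IA LPS replicate 2 Rag1 alone reached 27.8 CPM, and it was between 0.571 and 0.943 CPM in the other IA LPS lungs. Slc46a2 was at 0.663, 0.691, 0.535 and 0.297 CPM in the IA LPS lungs. Without IA LPS replicate 2 its log2 fold change was 1.49 (adjusted p = 0.471, edgeR). The part of thymus in the level of Slc46a2 was not tested.

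Of the 4 carriers for amino acid uptake in epithelia, only Slc6a20 was kept. Slc6a20 (ENSRNOG00000006010), which takes up proline and related imino acids with sodium and chloride, was at 5.11, 4.73 and 4.82 CPM in controls 1 to 3. In IA LPS replicates 1 to 4 it was at 7.79, 6.87, 5.85 and 6.94 CPM. Each of the 4 IA LPS lungs, replicate 4 included, was above every control. The means were 4.88 ± 0.196 CPM (SD, n = 3) and 6.86 ± 0.793 CPM (SD, n = 4), a 1.41-fold difference and 0.49 on the log2 scale (SE 0.152, edgeR's adjusted p = 0.189), with a 95% interval of 0.14 to 0.84. It was 0.42 to 0.56 when each lung was left out. Its adjusted p was under 0.1 with DESeq2 (0.0846) and with quality-weighted limma-voom (0.0960), and the fold change threshold was met with neither. RefSeq names the gene Slc6a20a and lists a near relative, Slc6a20b, and kallisto's division of reads between such copies is uncertain.

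**Figure D3:**
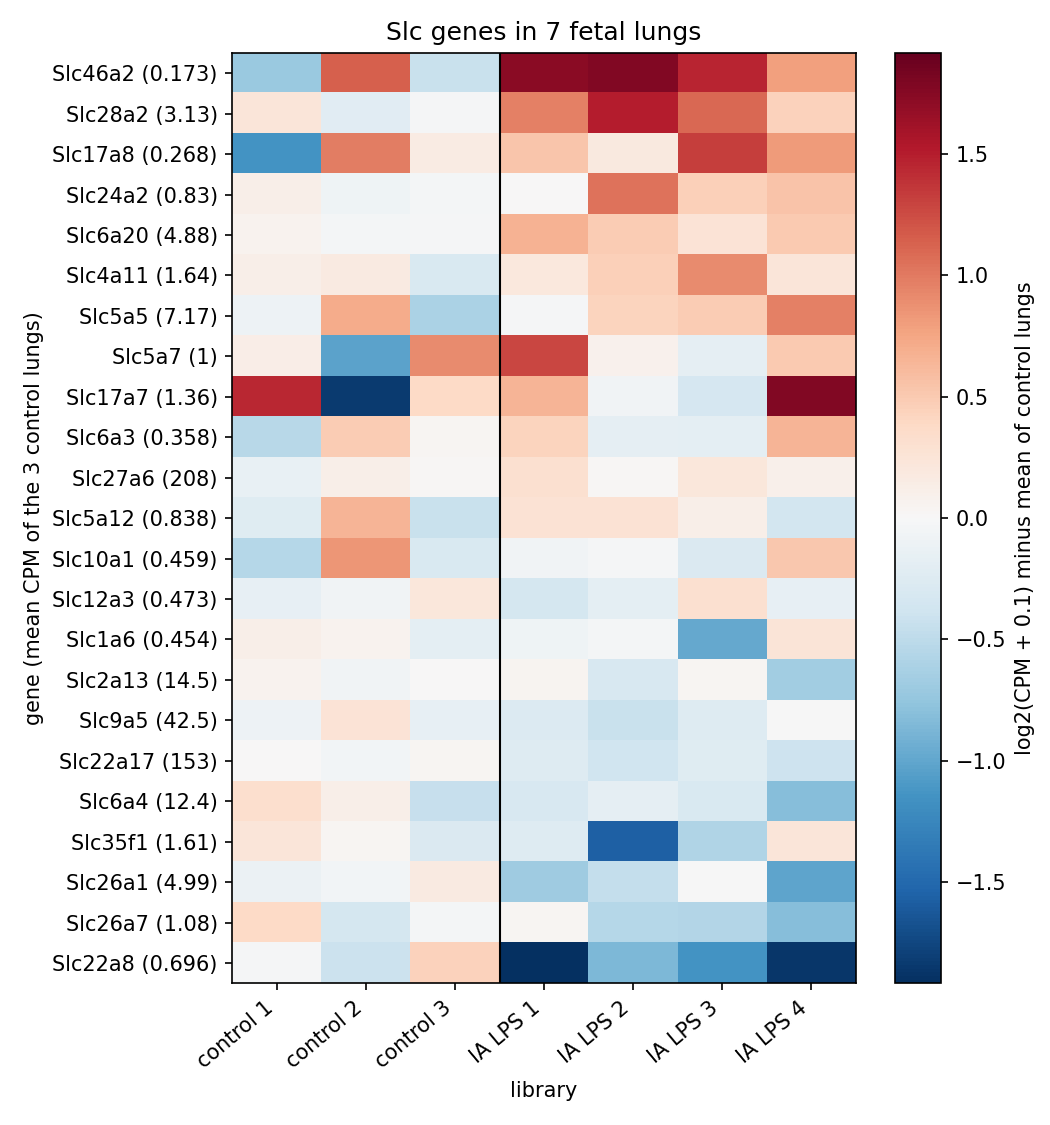
Level of the 23 Slc genes (rows, ordered by log2 fold change, with the control mean in CPM) in each of the 7 lungs (columns), as log2(CPM + 0.1) minus the mean of the control lungs. Slc28a2 and Slc6a20 are above the control mean in all 4 IA LPS lungs and Slc22a17 and Slc22a8 below it, while Slc17a7 is high in control replicate 1 and IA LPS replicate 4 and low in control replicate 2.

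Carriers of anions and base equivalents held 7 Slc genes of the table, 4 of them kept. Slc4a11 (ENSRNOG00000021234), a proton and hydroxide carrier of the corneal endothelium, was at 1.77, 1.85 and 1.30 CPM in controls 1 to 3. It was at 1.89, 2.25, 3.14 and 1.93 CPM in IA LPS replicates 1 to 4. The groups did not overlap, but IA LPS replicate 1 exceeded control replicate 2 by little, and the change of 0.49 on the log2 scale (SE 0.267, edgeR's adjusted p = 0.411) had an interval of -0.12 to 1.10. Slc5a5 (ENSRNOG00000018822), the sodium iodide symporter of the thyroid, spread from 4.36 to 10.9 CPM in controls and from 6.56 to 13.1 CPM in IA LPS lungs, where replicate 4 was highest. Its log2 fold change of 0.41 (SE 0.334) was 0.15 without control replicate 3 and 0.85 without control replicate 2. Slc26a1 (ENSRNOG00000000041), a sulfate carrier, was at 4.57, 4.81 and 5.59 CPM in controls and 3.07, 3.60, 4.92 and 2.41 CPM in IA LPS lungs, with IA LPS replicate 3 inside the control range and a log2 fold change of -0.51 (SE 0.247). Slc26a7, a chloride carrier of kidney and stomach, also had -0.51 (SE 0.339), and its groups overlapped. Neither passed the test.

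Slc27a6, Slc22a17, Slc9a5, Slc2a13 and Slc6a4 had the 5 highest mean CPM of the 23 genes. Slc27a6 (ENSRNOG00000058193), which takes up long-chain fatty acids, was at 188, 224 and 211 CPM in controls and 258, 210, 242 and 221 CPM in IA LPS lungs. The groups overlapped, and the change of 0.16 on the log2 scale (SE 0.108, edgeR's adjusted p = 0.498) had a 95% interval of -0.08 to 0.41, within a fold change of 1.5 in either direction. Such an interval was found for 3 of the 23 genes, Slc27a6, Slc22a17 and Slc9a5. Slc9a5 (ENSRNOG00000028844), a sodium-proton exchanger of neurons, was at 39.5, 50.4 and 37.6 CPM in controls and 35.3, 31.3, 35.5 and 42.1 CPM in IA LPS lungs. Here IA LPS replicate 4 lay within the control range and the other IA LPS lungs below it, and the change was -0.24 on the log2 scale (SE 0.138, edgeR's adjusted p = 0.439) over the 7 lungs and -0.32 (SE 0.115, adjusted p = 0.151) without replicate 4. Slc2a13 (ENSRNOG00000015741), the proton-coupled myo-inositol carrier, was at 13.8 to 15.2 CPM in controls and at 15.1, 11.7, 14.9 and 9.06 CPM in IA LPS replicates 1 to 4. Its log2 fold change of -0.19 (SE 0.185) became -0.06 without replicate 4. Slc6a4 (ENSRNOG00000003476), the serotonin transporter of the pulmonary endothelium and of platelets, was at 15.2, 13.1 and 8.82 CPM in controls and 9.74, 10.7, 9.85 and 6.80 CPM in IA LPS lungs. Control replicate 3 lay among the IA LPS lungs, and the change of -0.41 on the log2 scale (SE 0.221, edgeR's adjusted p = 0.404) was -0.24 without control replicate 1 and -0.61 without control replicate 3. No marker of the endothelium had a name.

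Neurotransmitter carriers held 10 Slc genes of the table, and 6 were kept. No neurotransmitter carrier was called, and Slc6a4 apart they were at or under 3.38 CPM in every lung. Slc17a7 (ENSRNOG00000020650), which loads glutamate into synaptic vesicles, varied widely within both groups. It was at 2.68, 0.185 and 1.23 CPM in controls 1 to 3 and at 1.5, 0.873, 0.714 and 3.38 CPM in IA LPS replicates 1 to 4. The groups overlapped, and the log2 fold change of 0.25 (SE 0.786) was -0.39 without IA LPS replicate 4. The neuronal gene Stmn2 (ENSRNOG00000011705) was at 12.5, 3.00 and 8.75 CPM in controls and 11.6, 6.33, 4.42 and 12.5 CPM in IA LPS lungs, and the 7 lungs fell in the same order in Slc17a7 and Stmn2, from control replicate 2 to IA LPS replicate 4. The 2 named markers of 6 in the neuron list summed to between 5.10 and 18.0 CPM in controls and between 6.67 and 20.0 CPM in IA LPS lungs. The cardiomyocyte list, with 4 of 6 markers named, also was lowest in control replicate 2 (43.6 CPM, up to 448 CPM in controls) and spread from 71.9 to 324 CPM in IA LPS lungs. Slc5a7 (ENSRNOG00000010597), the choline carrier of cholinergic nerves, was at 0.947, 0.370 and 1.69 CPM in controls and 2.23, 0.909, 0.749 and 1.26 CPM in IA LPS lungs. Control replicate 2, the lowest lung in Stmn2, was lowest in Slc5a7 too, but the highest lung in Slc5a7 was IA LPS replicate 1. In Slc17a8 and Slc6a3, given below, control replicate 2 was instead the highest control, at 0.518 CPM in each. The part of nerve tissue, or of how much tissue around the lung was taken, was not tested.

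**Figure D4:**
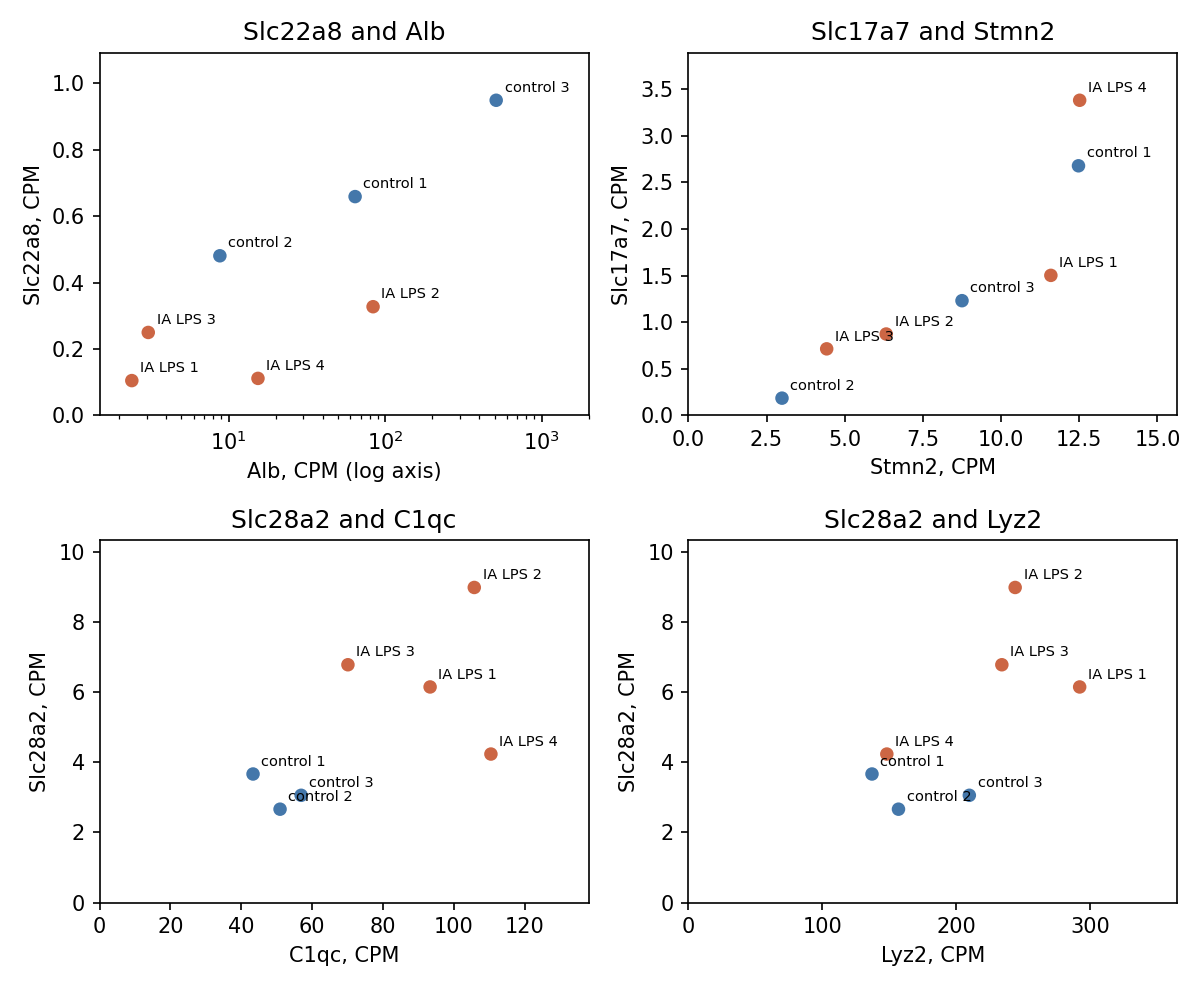
CPM of an Slc gene (vertical axis) against CPM of a marker of another cell type (horizontal axis, logarithmic for Alb only) in the 3 control lungs (blue) and 4 IA LPS lungs (orange). Slc17a7 and Stmn2 order the 7 lungs alike, control replicate 3 is highest in Slc22a8 and Alb, and IA LPS replicate 4, the lowest IA LPS lung in Slc28a2, is the highest in C1qc and the lowest IA LPS lung in Lyz2.

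The remaining neurotransmitter carriers were low, at or under 0.678 CPM in every lung, and Slc17a8 was under the detection floor in control replicate 1. Slc17a8 (a further vesicular glutamate carrier) was between 0.0412 and 0.518 CPM in controls and between 0.255 and 0.678 CPM in IA LPS lungs, with a log2 fold change of 0.66 (SE 0.665) that was 0.18 without control replicate 1 and 1.51 without control replicate 2. Slc6a3, the dopamine transporter, had 0.20 (SE 0.465) and Slc1a6, a glutamate carrier of Purkinje cells, -0.19 (SE 0.429). The cation carrier Slc24a2 (ENSRNOG00000008169), a potassium-dependent sodium-calcium exchanger, was at 0.906, 0.776 and 0.808 CPM in controls and 0.838, 1.82, 1.18 and 1.26 CPM in IA LPS lungs. Only IA LPS replicate 1 lay in the control range of Slc24a2, and the log2 fold change was 0.62 (SE 0.321, adjusted p = 0.395, edgeR). Slc12a3, the thiazide-sensitive sodium chloride carrier, had a log2 fold change of -0.10 (SE 0.354), the lactate carrier Slc5a12 0.02 (SE 0.378), and Slc35f1, with no settled substrate, -0.44 (SE 0.420). In none of these did the groups separate. The change of Slc35f1 was -0.18 without IA LPS replicate 2 and -0.76 without IA LPS replicate 4.

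The other 23 Slc genes of the table stayed under the filter and were not tested. Slc6a18 had no count in any lung, and in 11 more the highest lung had 4 counts or fewer. Slc5a11, a sodium-coupled inositol carrier, was not counted in the controls and had 3, 5, 4 and 3 counts in the IA LPS lungs, at or just above the floor. Slc36a2, a proton-coupled amino acid carrier, had 12, 8 and 24 counts in controls and 5, 8, 7 and 7 in IA LPS lungs, just outside the filter with 10 or more counts in 2 lungs. Slc6a3, just inside, had 14, 10, 14 and 16 counts in the 4 lungs that met the minimum. Slc16a5, a monocarboxylate carrier, had 0, 2 and 2 counts in controls and 6, 10, 7 and 1 in IA LPS lungs. Slc13a5, a sodium-coupled citrate carrier, had 4, 1 and 3 counts in controls and 1, 0, 1 and 0 in IA LPS lungs.

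Other genes of lung liquid and ion transport gave no call either, but 1.9% of all genes tested were called, so a list this short would seldom hold one. Of a list of 31 such genes 7 had a name and 6 were tested, and the sum of the 7 was between 85.2 and 92.4 CPM in controls and between 78.7 and 108 CPM in IA LPS lungs. Cftr (ENSRNOG00000055103), the chloride channel of liquid secretion, was at 12, 11.3 and 12.3 CPM in controls and 15.1, 15, 16.7 and 11.3 CPM in IA LPS lungs, with replicate 4 level with the lowest control and a change of 0.29 on the log2 scale (SE 0.149, edgeR's adjusted p = 0.388). Scnn1a (ENSRNOG00000019368), a subunit of the epithelial sodium channel, had 0.72 (SE 0.311, adjusted p = 0.312, edgeR), and IA LPS replicate 2 was highest at 24.7 CPM. Markers of the lung epithelium were present in every lung, and the sum of the 4 named of 10 was between 1100 and 1425 CPM in controls and between 1698 and 2227 CPM in IA LPS lungs, with 2 called induced. Of the other lists, the ciliated list (1 named of 6) and the neutrophil list (5 of 7) each had 1 gene called induced. For comparison, 1.39% of all genes tested were called induced. None was called in the neuroendocrine (3 of 5), erythroid (8 of 10), smooth muscle (3 of 4) and mesothelium (2 of 4) lists. No named gene of any list was without counts in all 7 lungs.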

How the data were processed

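Polyadenylated RNA of 7 fetal lungs was sequenced by the authors with paired-end reads, assigned to build rno6.0 with kallisto and summed to genes with tximport. The authors deposited estimated counts for 23918 genes without normalization, and the annotation release is not given in the sources used here. Counts were rounded to whole numbers. Total counts ranged from 25031827 to 28336525, and at most 1.34% of tested genes had equal counts in a pair of lungs. Genes with 10 or more counts in at least 3 lungs were tested with edgeR 4.0.16 (TMM, quasi-likelihood, condition as the only term) in R 4.3.3, with limma 3.58.1 and DESeq2 1.42.0 as alternatives and the study's thresholds for calls. DESeq2 was the study's tool. Standard errors were derived from each F statistic. The authors' fold changes and p-values in the supplementary tables, which paired 2070 identifiers with symbols, were not used. Slc genes and marker lists were chosen with earlier results of these data known. The text names genes that were called over the 7 lungs or without IA LPS replicate 4, or did not overlap, or had the 5 highest means or the 3 largest other changes, and members of their groups.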

Additional observations from a re-analysis of the deposited data

How the results depend on the processing

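The median standard error of the Slc genes was 0.339 on the log2 scale, at a median of 1.36 CPM. No call was made among the 23 Slc genes by edgeR with DESeq2's size factors, without the filter, with filterByExpr, without the fold change threshold or at an adjusted p of 0.05, nor by limma-voom. DESeq2 called 1 induced and 1 suppressed, quality-weighted limma-voom 2 and 1, and the fit without IA LPS replicate 4 1 and 0. Over the fits that left out a lung, 0 to 1 Slc genes were called induced and 0 suppressed, and over all genes 0 to 338 were called induced and 0 to 176 suppressed. All genes gave 424 induced and 206 suppressed calls with DESeq2, 463 and 252 with quality-weighted limma-voom, 86 and 35 at an adjusted p of 0.05, and 260 and 134 without the fold change threshold. The causes were not tested.

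The labels do not say whether equal replicate numbers mark paired lungs. The correlations of deviations from the group means were 0.144, -0.0605 and -0.193 for numbers 1 to 3. With groups this small, these values cannot tell whether lungs of equal number shared a dam or a day. With the replicate number as a block, 285 genes were called induced and 152 suppressed, among them 1 Slc gene, Slc28a2 (log2 fold change 1.21, adjusted p = 0.0538, edgeR). Number 4 occurs in IA LPS only, so the block in effect sets IA LPS replicate 4 aside. The value of Slc28a2 thus nearly repeats that without IA LPS replicate 4 (1.22) and is not separate evidence.

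Of 322 log2 fold changes of Slc genes under alternatives, 298 kept their direction and side of the thresholds, 7 passed the thresholds and 17 changed sign, all in genes not called. Slc5a7 was -0.035 without control replicate 2 and -0.045 without IA LPS replicate 1 (highest with a lung left out, 0.98). Slc17a7 was -0.068 with the block, -0.27 without control replicate 2 and -0.39 without IA LPS replicate 4 (highest 1.18). Slc6a3 was -0.0024 with the block, -0.064 without control replicate 1 and -0.022 without IA LPS replicate 4 (highest 0.55). Slc5a12 was -0.12, -0.20, -0.048 and -0.049 without control replicates 1 and 3 and IA LPS replicates 1 and 2 (highest 0.48). Slc10a1 was 0.047 with limma-voom, 0.61 without control replicate 2 and 0.03 without IA LPS replicate 3 (lowest -0.37). Slc12a3 was 0.043 without control replicate 3 (lowest -0.29), and Slc1a6 0.054 without IA LPS replicate 3 (lowest -0.39).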
